A study of Cucumis sativus with 18 samples.

Results

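Cucumber (Cucumis sativus) embryos after 30 days of ovary culture were compared with embryos after 20 days of the same culture. The comparison rests on 6 of the 18 RNA-seq libraries of the series, 3 at day 30 and 3 at day 20, which were chosen by their time label alone. In the series, unpollinated ovaries were put into culture, and RNA was taken from fresh ovaries, from ovules at day 2 and from embryos at days 10, 20, 30 and 60. The labels name no cultivar, medium, hormone treatment, donor plant or sequencing date for either group, and the design text states 3 biological replicates per time. Every library has ovary as its tissue label. Of the 23248 genes in each table, 18153 reached 1 RPKM in 3 or more of the 18 libraries and were tested. RPKM counts a gene's reads for each kilobase of its length, scaled to a fixed library size. Of the tested genes 16955 also reached 1 RPKM in 3 or more of the 6 libraries compared, and 7 were at 0 in all 6.

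Ovary culture is used to obtain embryos from the unfertilised female side of the flower, a route called gynogenesis that can give haploid and doubled haploid plants. An embryo that forms in culture passes through the globular, heart, torpedo and cotyledon shapes known from seed embryos. In seeds of many plants, growth by cell division gives way to the storage of proteins and oils, and a small number of storage and stress-protection transcripts can then become very abundant. RPKM states each gene as a share of the library, so a large change in abundant transcripts also moves the stated level of every other gene. The deposited IDs come without gene names, and 0 of the 23248 matched the RefSeq gene table, so genes are given by ID and without a role. For the same reason the embryo label could not be checked against marker genes.

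The 3 libraries at day 30 held 28.0 to 71.0 M (mega) reads assigned to genes and the 3 at day 20 held 26.7 to 66.5 M, the replicate 3 library being the deepest at both times. Across the tested genes, libraries of day 30 correlated with each other at r of 0.978 to 0.986 and those of day 20 at r of 0.958 to 0.987, on log2(RPKM + 1). Between the times r was 0.854 to 0.872. The replicate 1 library of day 20 stood somewhat apart. It had 18591 genes above 0, against 19634 to 20493 in the day 30 libraries and 19817 and 20517 in the other day 20 libraries. The SD of log2(RPKM + 1) between replicates had a median over genes of 0.14 at day 30 and 0.19 at day 20, and was larger at day 20 for 66.4% of genes.

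The plainest difference was in the make-up of the RNA. At day 30 the 1000 most abundant genes of each library held 38.2%, 38.2% and 37.7% of its reads, against 44.4%, 43.1% and 42.9% at day 20. Every day 30 library lay below every day 20 library, and the means were 38.0% ± 0.273 at day 30 and 43.5% ± 0.837 at day 20 (SD, n = 3 each, two-sided exact permutation p = 0.1). This p is the smallest that 3 libraries against 3 can give. For the 100 most abundant genes the share was 11.3% ± 0.0649 at day 30 and 14.1% ± 0.679 at day 20, again without overlap. For the 10 most abundant genes it was 3.01% ± 0.0832 at day 30 and 3.28% ± 0.536 at day 20 (SD, n = 3 each, two-sided exact permutation p = 0.7), and these values overlapped. Genes with an RPKM of at least 1 numbered 16589 to 16759 at day 30 and 16149 to 16484 at day 20. In RNA from whole samples, fewer cells of a type and less RNA per cell cannot be told apart.

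**Figure D1:**
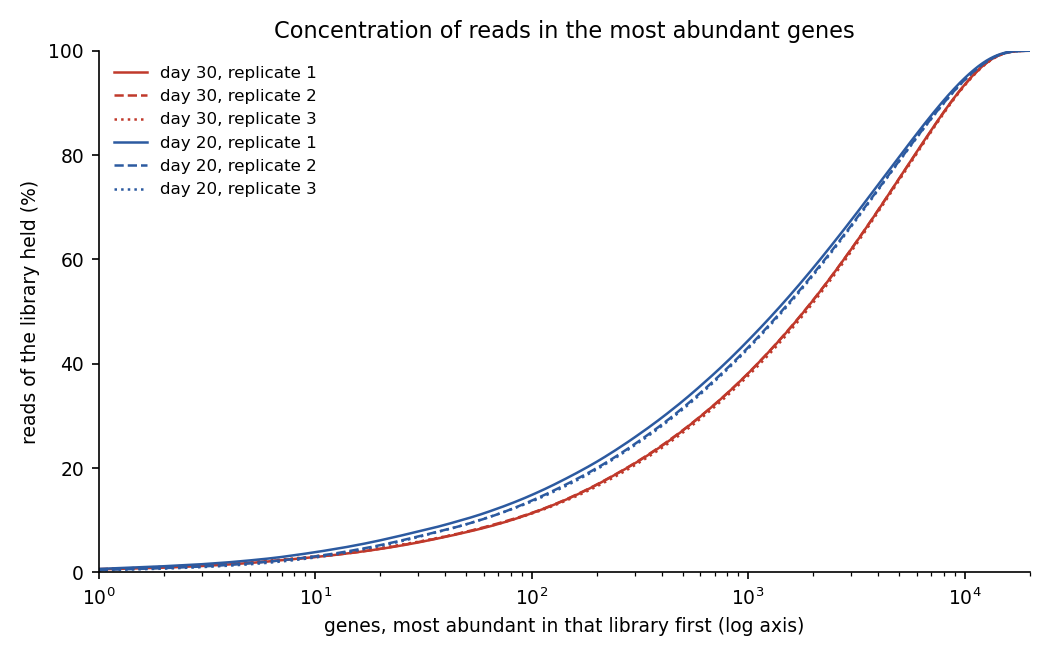
Share of each library's reads (%, vertical axis) held by its most abundant genes, added from the most abundant on (number of genes, log axis), for the 3 libraries of day 30 (red) and the 3 of day 20 (blue). The lines part beyond the first 10 genes, and at 1000 genes the day 30 libraries lie at 37.7% to 38.2% and the day 20 libraries at 42.9% to 44.4%.

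Reads at day 30 also lay in longer genes. The gene length at the middle of the reads was 3269, 3231 and 3286 bases in the day 30 libraries, against 2956, 3048 and 3119 bases in those of day 20. The lowest day 30 library thus lay above the highest day 20 library (two-sided exact permutation p = 0.1). Within each time the deepest library had the highest value. The lengths were worked out from the RPKM steps, as described under the processing, and may include introns.

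How many single genes changed, and in which direction, was asked of RPKM as deposited and again after median-ratio scaling. Median-ratio scaling divides each library by the median ratio of its genes to their mean over all libraries, so that the typical gene is set level. The size factors were 1.08 to 1.11 at day 30 and 0.897 to 0.927 at day 20. The limma tests that follow took their spread from all 18 libraries.

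As deposited, limma called 9994 genes, which is 55.1% of those tested, at an adjusted p under 0.05 after Benjamini and Hochberg. Of these, 6923 were higher and 3071 lower at day 30, or 38.1% and 16.9% of the genes tested. Under median-ratio scaling 8431 genes were called, 46.4% of those tested, with 4126 higher and 4305 lower at day 30, or 22.7% and 23.7%. That near-even split became 5004 higher and 4945 lower with the replicate number as a block. Upper quartile scaling, the other one tried, called 5632 higher and 3530 lower at day 30. Across the tested genes the log2 fold change had a median of 0.24 as deposited and 0.02 under median-ratio scaling. The scaling fixes this median near 0 by its construction, so whether the typical gene rose cannot be told from these libraries.

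The calls under the 2 scalings were nested. Median-ratio scaling divides the day 30 libraries by larger factors than the day 20 libraries, so it lowers the fold change of nearly every gene. The nesting follows largely from this and is not a separate result. There were 4126 genes higher and 3071 lower at day 30 under both scalings, and no gene was called in opposite directions. A further 2797 genes, 15.4% of those tested, were higher as deposited and not called after scaling. Another 1234, or 6.80%, were lower after scaling and not called as deposited. Under neither scaling were 6925 genes called, or 38.1%. The 3 libraries of day 30 lay wholly above or below the 3 of day 20 for 10964 genes as deposited, 60.4% of those tested, and for 9697 genes under median-ratio scaling, 53.4%.

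Falls outnumbered rises among called genes that changed at least 4-fold, under both scalings. From 2-fold up, 1654 called genes were higher and 1491 lower at day 30 as deposited, and 1000 and 1928 under median-ratio scaling. Among called genes, changes of at least 4-fold on the log2(RPKM + 1) scale numbered 119 higher and 538 lower at day 30 as deposited, and 69 higher and 673 lower under median-ratio scaling. Changes of at least 16-fold numbered 3 higher and 61 lower as deposited, and 1 higher and 81 lower under median-ratio scaling. When limma's treat test asked for a change beyond 2-fold at an adjusted p under 0.05, 6.93% of the genes tested passed as deposited and 6.97% under median-ratio scaling. As deposited, 430 were higher and 828 lower at day 30, 2.37% and 4.56% of those tested. Under median-ratio scaling 221 were higher and 1045 lower, 1.22% and 5.76%. The typical called gene changed less, with a median log2 fold change of 0.67 among the genes higher as deposited and -0.97 among those lower.

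**Figure D2:**
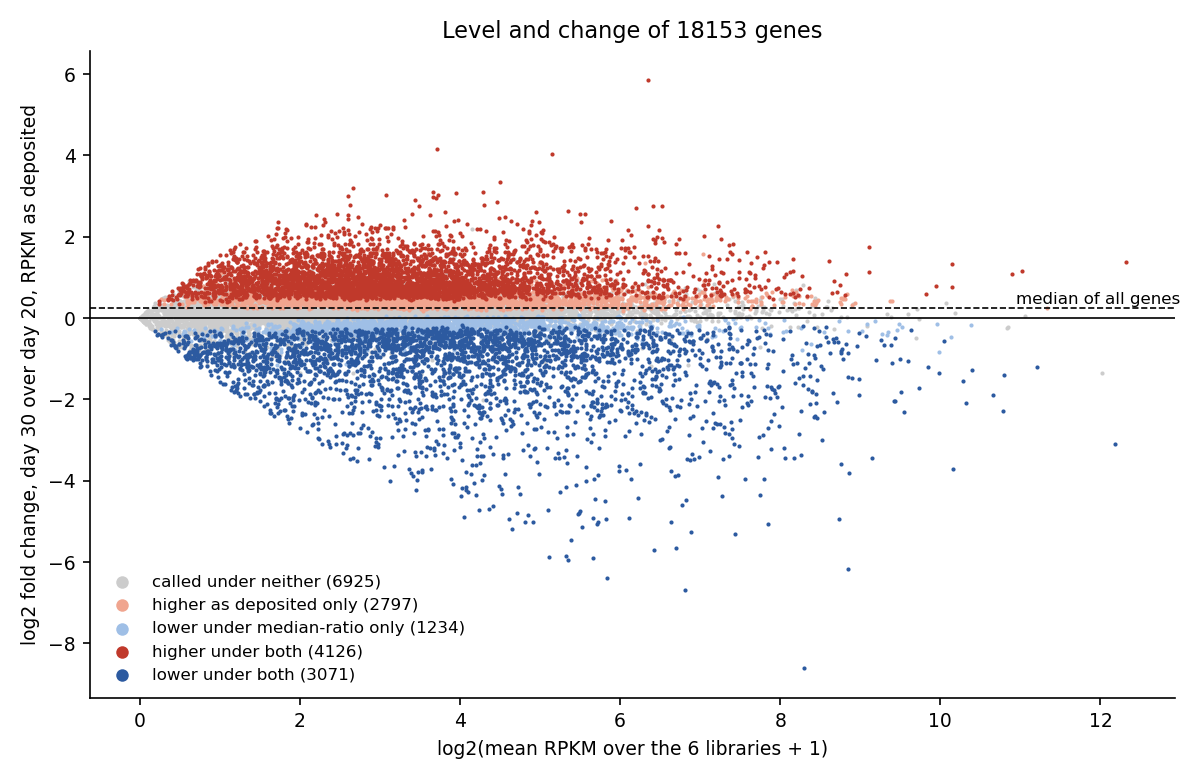
Log2 fold change of day 30 over day 20 as deposited (vertical axis) against log2 of the mean RPKM over the 6 libraries plus 1 (horizontal axis), 1 point per tested gene, coloured by the calls under the 2 scalings. The dashed line is the median of all genes, 0.24. The genes whose call depends on the scaling, 2797 and 1234, form 2 narrow bands around it, and the deepest points are falls.

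The share of genes called lower at day 30 was largest among abundant genes, and the share called higher was largest between 3 and 10 RPKM. Of the 177 genes with a mean of 300 RPKM or more over the 6 libraries, 41 were higher and 86 lower at day 30 as deposited, and 20 higher and 105 lower under median-ratio scaling. Their median log2 fold change was -0.37 as deposited and -0.64 after scaling. Of the 6395 genes between 3 and 10 RPKM, 2740 were higher and 768 lower as deposited, or 42.8% and 12.01%. After scaling 25.3% were higher and 18.8% lower in that tier. The share called lower grew with level, from 12.01% in that tier to 48.6% in the highest tier as deposited, and from 18.8% to 59.3% after scaling.

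**Figure D3:**
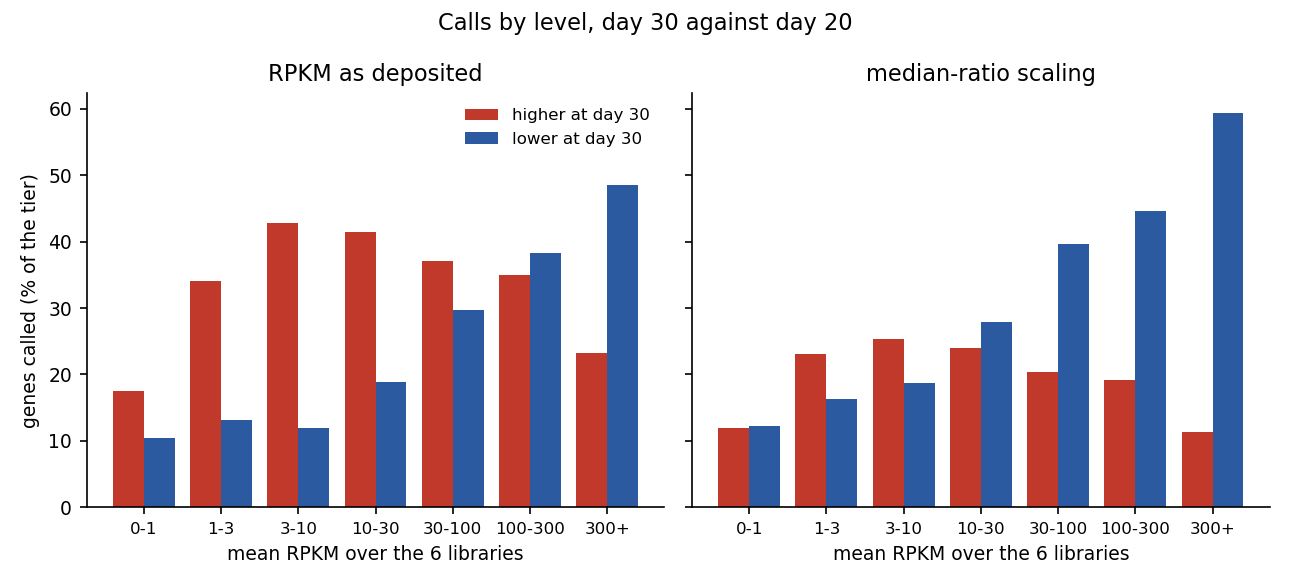
Genes called higher (red) and lower (blue) at day 30 than at day 20, as a percentage of the tested genes in each tier of mean RPKM over the 6 libraries, as deposited (left) and under median-ratio scaling (right). Blue bars reach 48.6% and 59.3% in the highest tier, while red bars are tallest between 3 and 10 RPKM, at 42.8% and 25.3%.

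The tiers above used the libraries compared, so the genes were also ranked by their level at times that the comparison did not use. Of the 183 genes with a mean of 300 RPKM or more at day 10, 38 were higher and 91 lower at day 30 than at day 20 as deposited. Under median-ratio scaling 16 were higher and 109 lower, and the median log2 fold change was -0.47 as deposited and -0.74 after scaling. Of the 158 genes at that level at day 60, 65 were higher and 46 lower as deposited, and 41 higher and 61 lower after scaling, with medians of 0.17 and -0.09. For the 148 such genes in fresh ovaries the counts were 54 higher and 52 lower as deposited, and 29 and 67 after scaling, with medians of 0.02 and -0.24. The 180 such genes at day 2 had 65 higher and 59 lower as deposited, and 29 and 73 after scaling, with medians of 0.13 and -0.14. Among these 4 rankings, the one by day 10 had more genes lower than higher under both scalings, and the balance of the other 3 turned with the scaling. As deposited, the day 10 mean was nearer to that of day 30 than of day 20 for 34.3% of tested genes. The day 60 mean was nearer for 66.8%. Ranking by day 10 may thus favour falls and ranking by day 60 rises, so these counts are a description. Genes under 1 RPKM differed in balance by the time used to rank them. As deposited, 642 were higher and 635 lower of those ranked by fresh ovaries, 624 and 411 by day 2, 872 and 240 by day 10, and 280 and 624 by day 60. Each of these genes was tested only because libraries of other times, day 20 and day 30 among them, helped it pass the filter. The filter thus shapes these balances, and they are a description only.

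The balance of calls also differed between tiers of gene length. Among genes of 500 to 1000 bases, 457 were higher and 461 lower at day 30 as deposited, with a median log2 fold change of 0.07. Among genes of 3000 to 5000 bases, the tier with the highest median of 7, 2164 were higher and 681 lower, with a median of 0.31. The relation was not steady, since genes of 8000 bases or more had 519 higher and 102 lower and a median of 0.21. After median-ratio scaling 296 genes were higher and 557 lower at 500 to 1000 bases, 1289 and 1024 at 3000 to 5000 bases, and 222 and 229 at 8000 bases or more. Short genes also stood lower within a band of level. Between 10 and 100 RPKM, genes under 1000 bases had a median log2 fold change of 0.09 as deposited, those of 1000 to 3000 bases one of 0.25 and longer ones one of 0.22. The genes lower under both scalings had a median length of 2073 bases and a median level of 13.2 RPKM, against 3012.5 bases and 7.47 RPKM for those higher under both. Over all tested genes the medians were 2867 bases and 7.47 RPKM.

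The genes that changed held much of the RNA. The 4126 genes higher under both scalings held 26.7%, 27.0% and 27.1% of the reads in the day 30 libraries, against 13.7%, 13.4% and 13.6% in the day 20 libraries. The 3071 genes lower under both held 15.3%, 15.5% and 15.4% at day 30, against 34.3%, 36.1% and 35.5% at day 20. Both sets were chosen for this difference, so these shares describe its size and test nothing. Of the 100 genes with the highest mean RPKM at day 20, 64 were called lower and 10 higher at day 30 as deposited. Of the 100 highest at day 30, 39 were called higher and 23 lower as deposited. Under median-ratio scaling 77 of the day 20 list were lower and 7 higher, and of the day 30 list 38 were lower and 21 higher, so the balance of the day 30 list turned with the scaling. Ranking by the day 20 mean favours falls by day 30, and ranking by the day 30 mean favours rises, since the comparison uses both means. The calls within these lists are thus a description and test nothing. The 2 top lists shared 59 genes, and the lists of 1000 shared 688.

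The 4126 genes higher and 3071 lower under both scalings were 22.7% and 16.9% of those tested. Of these, 3930 and 2958 also had no overlap of libraries under either scaling. Among the latter, the ones with the largest differences in mean RPKM are described. Csa5G606810 had 7099, 7896 and 6802 RPKM at day 30, against 3999, 2608 and 2125 RPKM at day 20. Every day 30 library lay above every day 20 library, and the day 20 values themselves differed widely, the highest being that of replicate 1. Csa5G606810 was the most abundant gene by mean RPKM at day 30, at 7266 ± 566, and ranked 4 at day 20, at 2911 ± 973 (SD, n = 3 each). Its log2 fold change was 1.37 (SE 0.22, limma adjusted p = 9.31e-05) as deposited and 1.10 (SE 0.23, limma adjusted p = 0.00111) under median-ratio scaling. At the other times it averaged 1084 RPKM in fresh ovaries, 1651 at day 2, 1371 at day 10 and 1300.4 at day 60. Day 30 was therefore a peak, and the level at day 60 was lower than at day 20.

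Csa7G009740 had 2398, 2669 and 2682 RPKM at day 30, against 1170.3, 1211 and 1286 RPKM at day 20. The replicates of each time were close and the times far apart. Its mean was 2583 ± 160 at day 30 and 1222 ± 58.5 at day 20 (SD, n = 3 each). The log2 fold change was 1.08 (SE 0.07, limma adjusted p = 6.80e-09) as deposited and 0.81 (SE 0.07, limma adjusted p = 1.27e-07) under median-ratio scaling. Csa7G009740 was expressed throughout, at 1342 RPKM in fresh ovaries, 1723 at day 2, 1108 at day 10 and 1957 at day 60.

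Csa4G620620 had 778, 918 and 1231 RPKM at day 30, against 8221, 6923 and 9763 RPKM at day 20. It was the most abundant gene by mean RPKM at day 20, at 8302 ± 1422, and ranked 17 at day 30, at 975 ± 232 (SD, n = 3 each). The log2 fold change was -3.10 (SE 0.26, limma adjusted p = 7.12e-08) as deposited and -3.37 (SE 0.26, limma adjusted p = 2.51e-08) under median-ratio scaling. It averaged 381 RPKM in fresh ovaries, 3490.1 at day 2, 6592 at day 10 and 880.2 at day 60. Mean levels thus climbed at each time up to day 20, though the libraries of day 10 (4895 to 8257 RPKM) and day 20 (6923 to 9763 RPKM) overlapped. Both later times lay far below day 20 and above the fresh ovary mean. The gene is short, at 285 bases, so its RPKM rests on fewer reads than its level implies. It took 0.0302% of the reads at day 30 and 0.248% at day 20.

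Csa5G161900 had 445, 690.0 and 682 RPKM at day 30, against 2504, 3020.1 and 3183 RPKM at day 20. The mean was 606 ± 139 at day 30 and 2903 ± 354 at day 20 (SD, n = 3 each). The log2 fold change was -2.28 (SE 0.26, limma adjusted p = 2.64e-06) as deposited and -2.55 (SE 0.26, limma adjusted p = 8.59e-07) under median-ratio scaling. This gene was at 0, 0.574 and 1.72 RPKM in the fresh ovary libraries, and averaged 507 RPKM at day 2, 961 at day 10 and 102 at day 60. It was near absent before culture and highest at day 20. At each of the 6 times the replicate 3 library, the deepest, gave the lowest value of Csa5G606810 and the highest of Csa4G620620. The part of depth in these 2 levels was not tested. Leaving out any 1 of the 6 libraries kept all 4 genes past the threshold under both scalings. The 4 genes were picked from these libraries for large differences without overlap, so this outcome was nearly fixed beforehand.

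**Figure D4:**
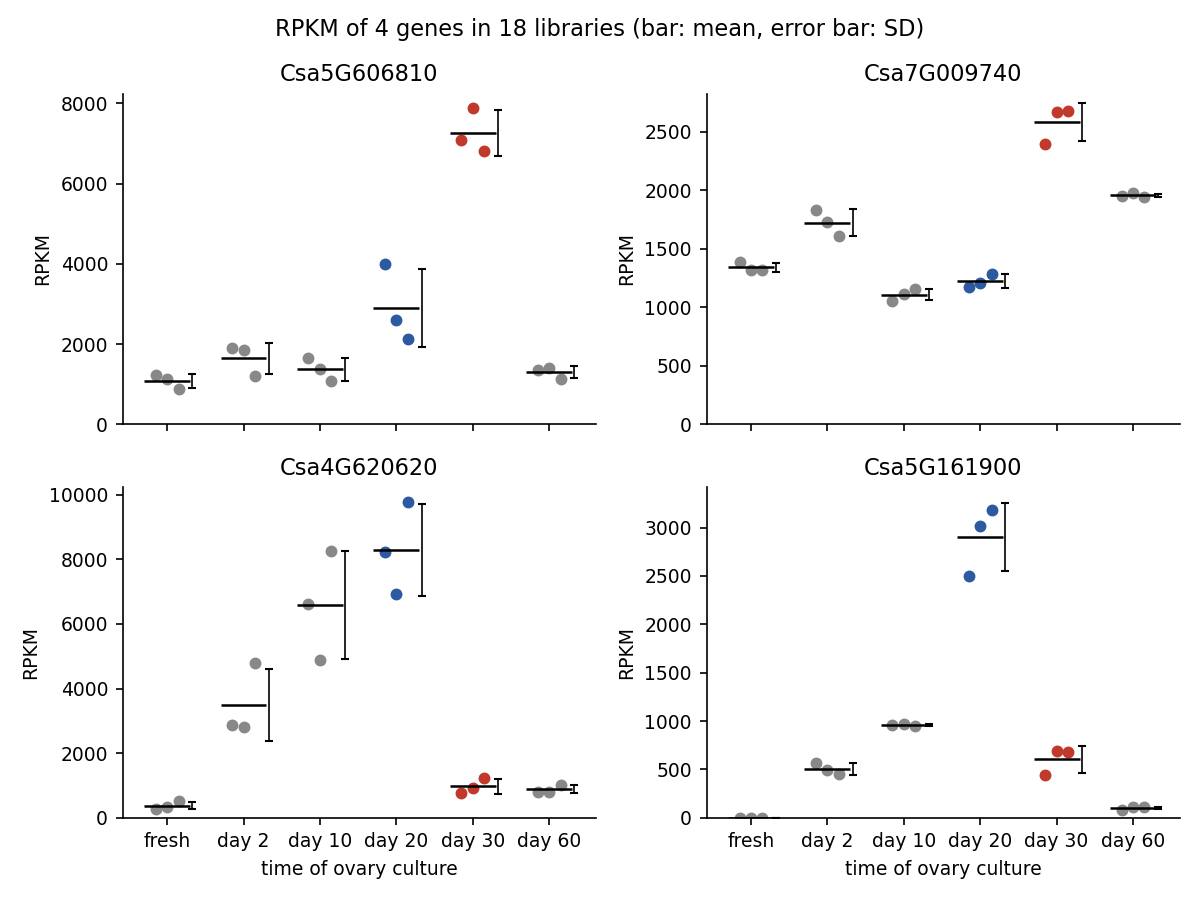
RPKM (vertical axis, from 0) of 4 genes in the 18 libraries by time of culture, with day 30 in red and day 20 in blue. Points are libraries in the order of replicates 1 to 3, horizontal bars are means and error bars are SDs (n = 3). Day 30 lies above day 20 for Csa5G606810 and Csa7G009740 and below it for Csa4G620620 and Csa5G161900, with no overlap.

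How many genes were present at 1 time alone depended on the level taken as absent. Counting a gene as present from 1 RPKM in each library of a time and as absent below 0.1 RPKM in each, 7 genes were present at day 30 and absent at day 20, and 26 the other way round. With absence set below 0.5 RPKM the counts were 78 and 111. The 7 genes under the stricter limit were low even where present, with a median mean level of 1.73 RPKM and a highest of 2.52 RPKM at day 30. The 26 genes had a median mean level of 4.03 RPKM and a highest of 31.2 RPKM at day 20. Of the 26, 6 reached 1 RPKM in all 3 libraries at day 10, 5 at day 2, 3 in fresh ovaries and 0 at day 60. Of the 7, 2 did so at day 60, 1 at day 2 and 0 in fresh ovaries and at day 10.

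The levels of the changed genes at the times not compared show where day 20 and day 30 stand in the culture. The 4126 genes higher under both scalings had median levels of 7.05 RPKM in fresh ovaries, 6.38 at day 2, 4.77 at day 10, 4.68 at day 20, 10.1 at day 30 and 9.35 at day 60. They were thus as low at day 10 as at day 20 and nearly as high at day 60 as at day 30. The day 60 mean was nearer to that of day 30 than to that of day 20 for 71.9% of them, against 66.8% of all tested genes. The day 10 mean was nearer to that of day 30 for 16.2%, against 34.3% of all tested genes.

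The 3071 genes lower under both scalings had median levels of 7.70 RPKM in fresh ovaries, 9.86 at day 2, 14.5 at day 10, 18.3 at day 20, 7.06 at day 30 and 6.20 at day 60. Their median climbed from fresh ovaries to day 20, and at day 30 and day 60 it lay below that of fresh ovaries. The day 60 mean was nearer to that of day 30 than to that of day 20 for 81.9% of them, and the day 10 mean was for 38.3%. Under median-ratio scaling the shares for day 60 and day 10 became 68.1% and 22.1% for the higher genes, 83.9% and 34.4% for the lower genes, and 65.0% and 35.9% for all tested genes. The means of day 20 and day 30 entered both the choice of genes and this measure, so the shares are a description.

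**Figure D5:**
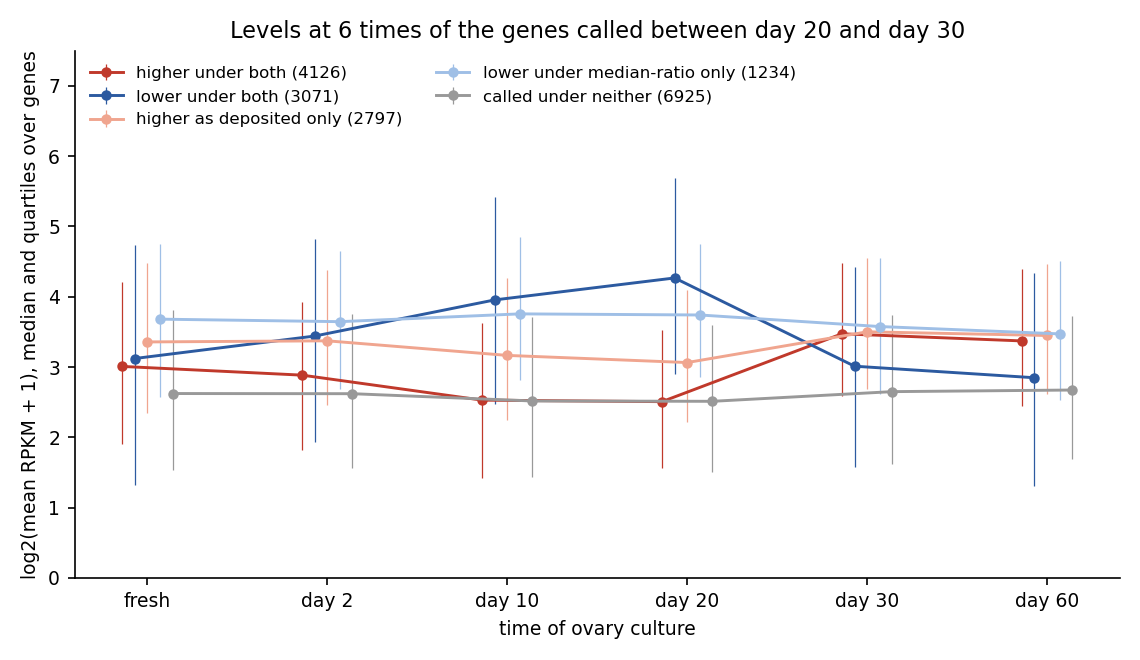
Median (points) and quartiles (bars) over genes of log2 of the mean RPKM plus 1 at 6 times, for the genes called between day 20 and day 30, as deposited. The genes lower under both scalings (dark blue) climb to day 20 and then lie at 3.01 at day 30, and those higher under both (dark red) lie lowest at days 10 and 20, at 2.53 and 2.51. The lists were chosen from day 20 and day 30, so only the other 4 times are new values.

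Genes that changed at least 2-fold had a changed neighbour in the ID list more often than their share of all IDs. The 1491 genes lower under both scalings by at least 2-fold were 6.41% of all IDs, and for 15.8% of them the next ID in the list was also such a gene. For the 1000 genes higher under both by at least 2-fold these shares were 4.30% and 10.0%. All IDs include 5095 genes that were not tested and could not be called, so the shares of tested genes are higher than 6.41% and 4.30%. How much of the excess comes from this was not tested. In all, 419 of the lower genes stood in runs of 2 or more consecutive IDs, with 38 runs of 3 or more. Of the higher genes 187 stood in runs, with 10 runs of 3 or more. The longest runs held 5 genes, 4 of them lower and 1 higher. Consecutive IDs were read from the order of the tables only, and no position in the genome was used.

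The run of 5 higher genes, with IDs that begin Csa6G, had its highest sum at day 30. Its RPKM summed over the 5 genes was 28.6, 41.6 and 39.6 at day 30, against 4.02, 3.70 and 3.38 at day 20. Single members had means of 4.47 to 9.23 RPKM at day 30 and 0.479 to 1.08 RPKM at day 20. The sum averaged 1.501 RPKM in fresh ovaries, 0.338 at day 2, 1.94 at day 10 and 5.91 at day 60. These genes were picked for a rise from day 20 to day 30, and the day 30 libraries alone let each pass the filter. Low values at other times are thus in part built in, and the course is a description only. All 5 genes had a log2 fold change between 1.73 and 2.44 as deposited. Their lengths were alike, at 1536 to 2001 bases. Whether they are near-identical copies that share reads was not tested, and single values would then be uncertain.

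One of the lower runs, also with IDs that begin Csa6G, was the most abundant. Its 5 genes summed to 79.2, 119.8 and 86.0 RPKM at day 30, against 811, 1239.8 and 905 RPKM at day 20. The sum averaged 1.03 RPKM in fresh ovaries, 22.9 at day 2, 1382 at day 10 and 7.70 at day 60. The mean sum was thus highest at day 10, with day 20 next. At day 30 it averaged 95.0 RPKM, still above fresh ovaries, day 2 and day 60. Members differed more among themselves than in the higher run, with means of 0.634 to 52.3 RPKM at day 30 and 11.5 to 557 RPKM at day 20, and lengths of 232 to 2413 bases. A run of 5 lower genes with IDs that begin Csa2G had another course. It summed to 16.4, 16.9 and 15.2 RPKM at day 30, against 199, 221 and 206 RPKM at day 20. The sum averaged 177 RPKM in fresh ovaries, 48.7 at day 2, 151 at day 10 and 29.0 at day 60. In the fresh ovary libraries the lowest of the 5 genes was at 0.365 to 0.982 RPKM, so the sum there came from the other members. Their log2 fold changes lay between -3.85 and -2.22 as deposited. All these runs were picked after their values were seen.

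The direction of change did not gather in 1 part of the gene list by ID. Among the 7 prefixes from Csa1G to Csa7G, genes higher at day 30 as deposited made up 36.5% to 39.1% of those tested and genes lower 15.8% to 18.3%. The 96 tested genes with the prefix CsaUN had 24.0% higher and 14.6% lower.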

How the data were processed

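Poly(A) RNA was sequenced in paired ends on an Illumina HiSeq instrument, per the labels' protocols. Per the file headers, the authors deposited RPKM values, 1 column per library and 1 table per time. The tools named are HTSeq 0.6.1p2, TopHat and TopHat2, per the submitters' processing notes. Not given in the sources used here were the genome build, annotation and strand setting. In the fresh ovary table the 3 library names share 1 header cell, whose order was followed. RPKM does not correct for the make-up of the RNA.

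limma 3.58.1 in R 4.3.3 was fitted to log2(RPKM + 1) of all 18 libraries, with 1 coefficient per time and a trended, robust variance, and adjusted p-values over 18153 genes. Fold changes on this scale understate the change of low genes. Median-ratio factors came from genes above 0 in all libraries. Whole reads, library totals and gene lengths were recovered from the RPKM steps for 21761 genes, and 97.4% of values above 0 came within 0.001 of a whole read. The recovery solved 4 of 4 simulated tables. Reads are not independent molecules, so depth overstates the precision. On simulated reads for this comparison, over 17275 genes, limma recovered 17 of 67 genes at a 1.5-fold change, 57 of 67 at 2-fold and 65 of 66 at 4-fold. The simulation changed only 200 genes and used 1 setting of spread for all genes. In the data 55.1% of genes were called, so the recovery of small changes need not carry over.

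As deposited, deviations from the group means of same-numbered libraries correlated between the times at 0.402, 0.154 and 0.629 for replicates 1, 2 and 3. For libraries of different number the values were -0.471 to 0.0655. The 3 deviations of a gene within a time are not independent, so neither are these correlations. Replicate 3 was also the deepest library at both times. The labels do not say what a number stands for, and whether it pairs samples was not tested. The main fit did not use the number. The limma p-values measure a spread pooled over all 18 libraries, and the permutation p-values use the 6 compared. Fitted on those 6 alone, as deposited, the limma adjusted p was 0.0024 for Csa5G606810 and 1.7e-04 for Csa7G009740. In the same fit the limma adjusted p was 4.1e-05 for Csa4G620620 and 1.3e-04 for Csa5G161900. Named genes were the 2 higher and the 2 lower with the largest difference in mean RPKM among genes called without overlap under both scalings. The comparison, its gene sets and the scalings were chosen with earlier results of these data known. The tiers by length, those by the level at other times and the runs of IDs were added after the values were seen. The marker and pathway lists were not used because no ID matched a name. Values were handled in Python 3.11.15 with pandas 2.3.3 and numpy 2.4.6, permutation tests run with scipy 1.17.1 and plots drawn with matplotlib 3.10.9.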

Additional observations from a re-analysis of the deposited data

How the results depend on the processing

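Of 192 alternatives of gene counts, 186 stayed within 1.5 times, and the 4 named genes passed the threshold in the same direction in all 128 of theirs; these genes were picked for large changes, so this does not carry over to others. Scaling moved the genes higher at day 30 from 6923 as deposited to 4126 under median-ratio scaling, and those higher beyond 2-fold from 430 to 221. With voom, 769 genes were higher and 993 lower beyond 2-fold as deposited, and 433 and 1252 after median-ratio scaling. With a pseudocount of 0.1 these counts were 607 and 941 as deposited, and 305 and 1154 after median-ratio scaling. The median log2 fold change of 0.24 as deposited became 0.024 after median-ratio scaling, 0.15 after upper quartile scaling, 0.30 with a pseudocount of 0.1, 0.16 with no filter and 0.31 with voom; that of 0.024 after median-ratio scaling became 0.0029 with no filter and 0.15 after upper quartile scaling. The cause was not tested. Leaving out 1 library of day 30 or day 20 gave 8975 to 9561 changed genes as deposited and 7349 to 8257 under median-ratio scaling, with 6161 to 6554 and 3454 to 3973 higher, 2814 to 3055 and 3870 to 4284 lower, and medians of 0.21 to 0.25 and 0.0058 to 0.029, the lowest of these without replicate 1 of day 20. With the replicate block 11600 genes changed as deposited and 9949 under median-ratio scaling. Of the latter, 5004 were higher and 4945 lower, so the near-even balance there turned. The block changed no call of a named gene. Fitted on the 6 libraries alone, 9171 and 7428 genes changed. Without replicate 1 of both times, chosen after seeing the data, 8692 and 7260 did. Of the 1326 genes under 1 RPKM over the 6 libraries, 17.5% were called higher and 10.5% lower as deposited; the part of depth in this was not tested.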
